A study of Mus musculus with 6 samples.

Results

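Heme is made in 8 enzymatic steps, and the genes described here are 8 of the enzymes of that pathway together with biliverdin reductase B. They are the rows of the count table named Alas1, Alas2, Alad, Uros, Urod, Cpox, Ppox, Fech and Blvrb, 9 of the 54532 genes listed. All 9 were among the 16003 genes with enough counts to be tested. The samples were epididymal white adipose tissue (eWAT), a visceral fat depot, of male C57BL/6 mice that were 6 to 10 weeks old when obtained. The cachexia group (3 samples) came from mice with subcutaneous Lewis lung carcinoma (LLC), a mouse lung cancer line, that had lost body weight, and the control group (3 samples) from mice that the labels call only control. Tissue was taken on day 21 after inoculation. Nothing in the labels or methods says whether a sample was 1 mouse or a pool, so p-values measure the spread between these samples.

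Heme synthesis starts in the mitochondrion, where 5-aminolevulinate synthase joins glycine to succinyl-CoA. This is the rate-limiting step, and separate genes encode its isozymes: Alas1, which all tissues use and heme represses, and the X-linked Alas2, which erythroid cells use to supply hemoglobin. Alad, Uros and Urod act in the cytosol, and Cpox, Ppox and Fech finish the molecule at the mitochondrion, where Fech inserts ferrous iron. In cells other than red cell precursors, heme goes mainly to cytochromes and other enzymes. Blvrb is not an enzyme of synthesis. It reduces biliverdin and flavins with NADPH and is abundant in red cells.

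The sequences below are shown for the known control of the erythroid isozyme and for erythroid motifs near the starts of members described later. The 5′ UTR of the Alas2 mRNA holds an iron-responsive element, the hairpin to which iron regulatory proteins bind and so hold back translation when iron is scarce. It was searched in GENCODE M21 transcripts on the sense strand as a C, 5 bases, the loop CAGTGN and 5 bases that pair with the earlier ones, wobble pairs included. Of 20916 protein-coding genes with an annotated 5′ UTR, 31 (0.148%) held a match, and Alas2 was the only member among them. The match starts at position 90 of the transcript, and the 30 bases shown span the junction of the leading exons, from 150547458 to 150552150 on the plus strand of chromosome X (GRCm38). Capitals mark the unpaired C and the loop.
Alas2 iron-responsive element: ttggttCgtcctCAGTGCagggcaacagga

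GATA1 is a transcription factor of erythroid cells. Its motif (AGATAA or its variants AGATAG and TGATAA and also TGATAG, on either strand) was searched in RefSeq promoter windows of GRCm38.p6, 250 bases before to 50 after the start, which the table held for 8 of the 9 members (12 windows). A match was present in 29.8% of all 32851 windows and in 4 of the 12 windows of members, a share near that of all windows. These were the windows of Alas2 and Cpox and 1 window each of Uros and Blvrb. The window of Cpox held 3 matches, a number reached by 1.76% of all windows. CACCC, the core of the motif of the erythroid factor KLF1, was present in 57.5% of all windows. The window of Alas2 held 3 matches (0 in the bases shown) and that of Cpox 4, while those of Ppox and Uros held 0. The share of all windows with as many matches was not computed. The bases before the start are shown for 3 members that are described below as changed, Alas2 and Cpox (higher in cachexia) and Alad (lower), up to the nearest annotated exon. Those of Alas1 lie within the annotated span of the gene and are not shown. Capitals mark GATA matches, and those of Cpox overlap by 1 base.
Alas2, chrX:150547167-150547374, plus strand: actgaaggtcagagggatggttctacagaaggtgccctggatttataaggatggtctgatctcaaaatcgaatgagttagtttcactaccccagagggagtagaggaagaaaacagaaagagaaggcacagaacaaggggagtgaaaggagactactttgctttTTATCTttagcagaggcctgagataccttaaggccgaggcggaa
Cpox, chr16:58669958-58670207, plus strand: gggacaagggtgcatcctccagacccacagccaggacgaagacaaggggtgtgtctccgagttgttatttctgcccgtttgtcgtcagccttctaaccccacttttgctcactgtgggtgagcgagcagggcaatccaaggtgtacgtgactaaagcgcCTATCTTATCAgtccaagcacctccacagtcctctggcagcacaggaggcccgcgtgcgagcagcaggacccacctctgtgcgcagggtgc
Alad, chr4:62520064-62520313, minus strand: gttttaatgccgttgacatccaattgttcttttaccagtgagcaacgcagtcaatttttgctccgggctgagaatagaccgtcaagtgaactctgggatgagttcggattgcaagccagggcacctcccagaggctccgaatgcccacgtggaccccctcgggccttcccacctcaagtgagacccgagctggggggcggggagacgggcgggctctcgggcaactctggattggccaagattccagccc
These matches describe letters in a window. No binding was measured in these samples.

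Values in CPM are counts brought to a common library size with TMM factors, and fold changes are those of cachexia over control. Total counts lay between 14928766 and 18855546, and each cachexia sample had fewer than each control sample. In edgeR's quasi-likelihood test, with Benjamini-Hochberg adjustment at 0.05, 17.6% of all genes tested were called changed, 9.0% higher and 8.63% lower in cachexia. The tissue label was checked against 10 adipocyte markers, all of which were tested, with a summed level of 28042 to 35863 CPM in control and 29709 to 46237 CPM in cachexia. The lipid droplet gene Cidec and the lipase gene Pnpla2 were higher and the leptin gene Lep was lower (log2 fold changes 0.87, 1.08 and -3.14). The other 7 did not pass, among them the lipid droplet coat gene Plin1, whose groups did not overlap (-1.44, edgeR adjusted p of 0.057). Of 9 tested neutrophil markers 8 were higher in cachexia (summed level of the list at most 15.5 CPM in control and at least 209 CPM in cachexia), as were 3 of 8 endothelial markers (1564 to 1650 and 2236 to 3361 CPM). Several of these neutrophil markers, among them Mmp8, Ltf and Ngp, had enough counts to be tested only through the cachexia samples. Their direction was thus largely set by that filter. S100a8 and Csf3r had enough counts in both groups and were higher. Of 8 macrophage markers 1 was higher and 1 lower. DESeq2 called 6 endothelial and 6 neutrophil markers higher, and limma 2 endothelial markers and 7 to 9 of 10 neutrophil markers. For adipocyte markers, DESeq2 called 2 higher and 2 lower, and limma 1 higher and 0 lower (2 lower at an unadjusted p under 0.05). The part of these cell types in the results below was not tested. With 3 samples against 3, a two-sided exact permutation test cannot give a p-value under 0.1.

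Expression of Alas2 was upregulated in cachectic eWAT while that of Alas1 was downregulated. Of the 9 members, 4 passed the test: Alas2 and Cpox were higher, and Alas1 and Alad were lower. The 4 of 9 stand beside the 17.6% of all genes, and 2 of 9 in each direction beside 9.0% and 8.63%. The groups did not overlap for 2 members that were higher (20.4% of all genes tested) and for 3 that were lower (20.1%), the third being Urod, so for 5 of 9 beside 40.5% of all genes. Within each group, values below are listed in the order of replicates 1, 2 and 3. The other 5 members, Uros, Urod, Ppox, Fech and Blvrb, did not pass the test. The median log2 fold change of the 7 synthesis enzymes other than Alas2 was -0.14, and that of all genes tested was -0.0031.

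**Figure D1:**
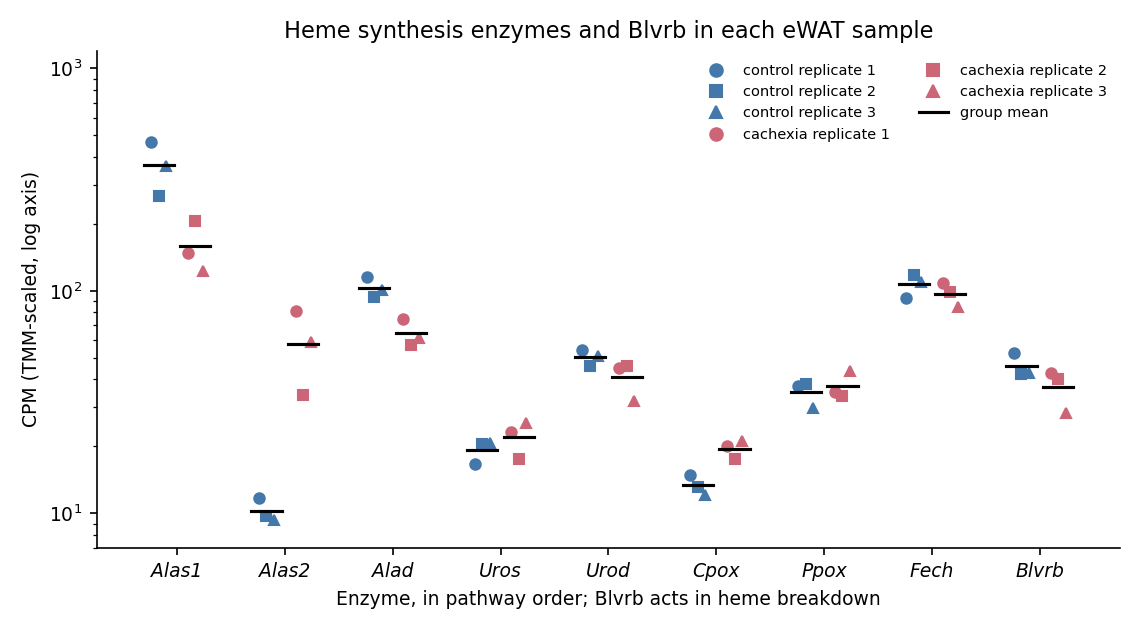
CPM on a log axis of each member in each of the 6 eWAT samples, blue for control and red for cachexia, with a marker shape for each replicate number and a black bar for the group mean. Alas2 rose from about 10.2 to 57.9 CPM on average while Alas1 fell from 367 to 159 CPM, and the groups overlap for Uros, Ppox, Fech and Blvrb.

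Alas2 (ENSMUSG00000025270, chromosome X from 150547375 to 150570638) stood at 11.7, 9.69 and 9.29 CPM in control and at 81.2, 34.0 and 58.6 CPM in cachexia. The control samples lay close together, and the cachexia samples, all above them, differed by more than 2-fold among themselves, with replicate 2 lowest. Control averaged 10.2 ± 1.31 CPM (SD, n = 3) and cachexia 57.9 ± 23.6 CPM (SD, n = 3), and the fitted fold change was 5.65. On the log2 scale this is 2.50 (standard error 0.31, 95% interval 1.79 to 3.21), with an edgeR adjusted p of 0.00336 (Benjamini-Hochberg). Only 1.01% of the genes tested had a larger log2 fold change. It passed the threshold in all 15 other settings tried, at 2.16 to 2.77. Alas2 shares exon bases with Apex2 and Mir3620 on its other strand, 372 of 2403 bases, and whether counting used strand is not given in the sources used here. Apex2 moved in the opposite direction, falling by 1.20 on the log2 scale (standard error 0.19, adjusted p of 0.0071 in edgeR).

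Alas1 (ENSMUSG00000032786, chromosome 9 from 106233455 to 106248654) stood at 467, 267 and 366 CPM in control and at 147, 205 and 122.9 CPM in cachexia. Control replicate 1 was highest, and the lowest control sample was above the highest cachexia sample. The mean was 367 ± 100.2 CPM (SD, n = 3) in control and 159 ± 42.4 CPM (SD, n = 3) in cachexia. The log2 fold change was -1.21, with a standard error of 0.26, a 95% interval of -1.82 to -0.60 and an edgeR adjusted p of 0.0207 (Benjamini-Hochberg). Expression was thus 2.31-fold lower. The call was lost without control replicate 3 (adjusted p = 0.0726), cachexia replicate 1 (0.0651) or cachexia replicate 3 (0.0540) in the same edgeR test, and over the 15 other settings the adjusted p ranged from 0.00011 to 0.0726. The direction was the same in all 15. In bulk tissue, fewer cells of a type and less RNA per cell cannot be told apart.

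**Figure D2:**
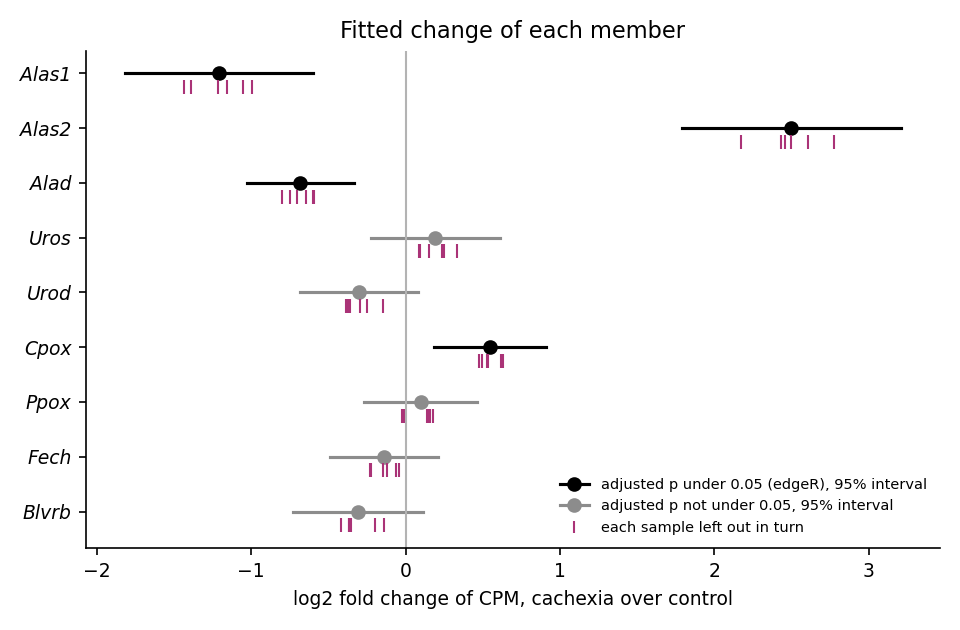
Fitted log2 fold change of CPM, cachexia over control, for each member with its 95% interval, in black where the adjusted p was under 0.05 (edgeR) and grey where it was not, and purple ticks for fits that leave out each sample in turn. Alas2 stands at 2.50 and Alas1 at -1.21, and the ticks of Ppox fall on both sides of 0.

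The isozymes were set against each other within each sample. The log2 CPM of Alas2 minus that of Alas1 (pseudocount 0.5) was -5.26, -4.71 and -5.22 in control and -0.86, -2.58 and -1.06 in cachexia. The groups did not overlap, and the mean difference between them was 3.57 (exact permutation test, two-sided, p = 0.1, the smallest possible). It ranged from 3.24 to 4.11 with a sample left out. Against the other members, Alas2 gained between 1.83 (Cpox) and 3.04 (Alad) on this scale, as a description without a test.

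Levels of different genes were compared per length, with the FPKM values that the authors deposited. In control eWAT, Alas1 was the highest member at 58.6 ± 16.2 (SD, n = 3) FPKM and Alas2 was next to last at 4.21 ± 0.548 (SD, n = 3) FPKM. Control FPKM of Alas1 was 10.7 to 15.5 times that of Alas2 in the same sample. In cachectic eWAT, Alas2 reached 23.6 ± 9.67 (SD, n = 3) FPKM and Alas1 25.1 ± 6.69 (SD, n = 3) FPKM, and their ranges overlapped. Alas2 was above Alas1 in cachexia replicates 1 and 3 (1.41 and 1.23 times its FPKM) and below it in replicate 2 (0.425 times). The share of Alas2 in the summed FPKM of both isozymes was 6.91% ± 1.41 (SD, n = 3) in control and 47.8% ± 15.7 (SD, n = 3) in cachexia, and the groups did not overlap. The sum itself was 62.8 ± 16.6 (SD, n = 3) FPKM in control and 48.7 ± 6.98 (SD, n = 3) FPKM in cachexia, and its samples overlapped.

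**Figure D3:**
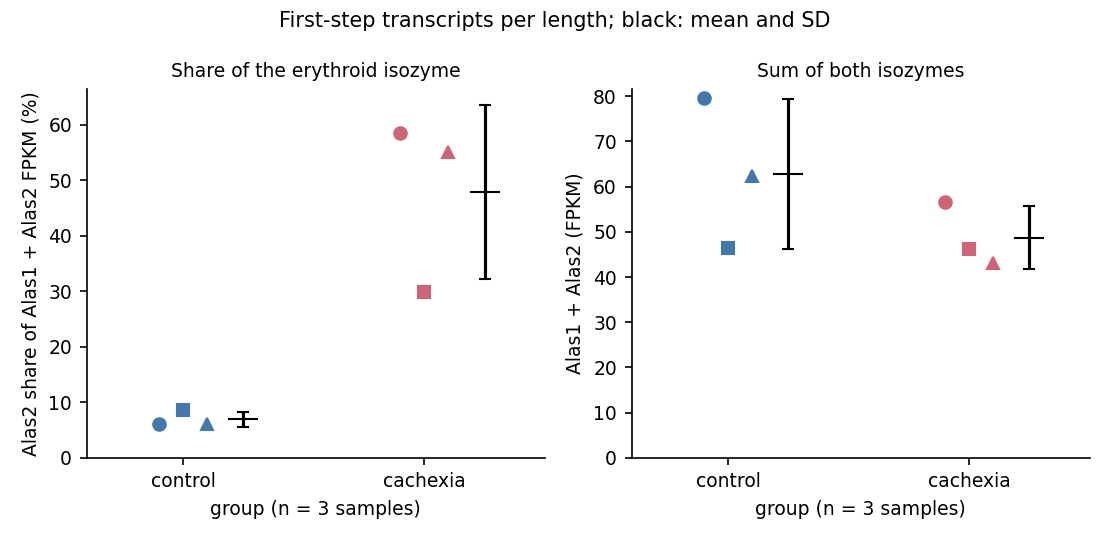
Left, the share of Alas2 in the summed FPKM of Alas1 and Alas2 in percent, and right, that sum in FPKM, for the 3 control (blue) and 3 cachexia (red) samples, with circle, square and triangle for replicates 1, 2 and 3 and the mean ± SD in black. The share lies between 6.06% and 8.53% in control and between 29.8% and 58.6% in cachexia, while the sums overlap.

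The order of the members by FPKM in control eWAT was Alas1, Alad, Fech, Urod, Blvrb, Ppox, Uros, Alas2 and Cpox. Among neighbors in this order, the samples of Alas1 and Alad, of Urod and Blvrb and of Uros and Alas2 overlapped. In cachexia the order was Alad, Fech, Alas1, Alas2, Urod, Blvrb, Ppox, Uros and Cpox, and each of the leading 5 overlapped its next neighbor. Cpox was lowest in both groups. The place of Fech depends on the annotation used. Its FPKM rests on a gene length of 2901 bases, while GENCODE M21 gives it 13838 exon bases, and it is the only member whose coordinates differ there.

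Among the cytosolic enzymes, Alad was downregulated and Uros and Urod did not pass the test. Alad, which joins pairs of 5-aminolevulinate into porphobilinogen (chromosome 4 from 62509169 to 62519918), stood at 115, 93.8 and 101 CPM in control and at 74.5, 57.0 and 61.6 CPM in cachexia. Each cachexia sample was below each control sample. Its log2 fold change was -0.68 (standard error 0.15, 95% interval -1.03 to -0.34), at an edgeR adjusted p of 0.0207 (Benjamini-Hochberg), a 1.60-fold lower level. The call was lost without control replicate 1 (adjusted p = 0.0505), control replicate 3 (0.0759) or cachexia replicate 2 (0.0556) in the same edgeR test, within a range of 0.0012 to 0.0759 over 15 other settings.

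Uros, which closes the ring (chromosome 7 from 133686243 to 133710072), had 16.7, 20.5 and 20.8 CPM in control and 23.2, 17.6 and 25.4 CPM in cachexia, and the groups overlapped (log2 fold change 0.19, 95% interval -0.22 to 0.61). Urod, which decarboxylates the ring (chromosome 4 from 116989965 to 116994413), had 54.0, 46.0 and 50.9 CPM in control and 44.8, 45.9 and 31.9 CPM in cachexia. The groups of Urod were separated by less than 0.1 CPM, and its log2 fold change of -0.30 (95% interval -0.68 to 0.08), at an edgeR adjusted p of 0.241 (Benjamini-Hochberg), did not pass the test.

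Of the enzymes that finish heme at the mitochondrion, Cpox was upregulated and Ppox and Fech did not pass the test. Cpox, which oxidizes coproporphyrinogen (chromosome 16 from 58670292 to 58717636), stood at 14.9, 13.2 and 12.1 CPM in control and at 20.004, 17.6 and 21.05 CPM in cachexia. Each cachexia sample was above each control sample. The log2 fold change was 0.55 (standard error 0.16, 95% interval 0.18 to 0.91), at an edgeR adjusted p of 0.0483 (Benjamini-Hochberg), a 1.46-fold higher level just inside the threshold. It was past 0.05 in 3 of the 15 other settings, with adjusted p-values between 0.0270 and 0.184, and leaving out any of the 6 samples ended the call (0.0545 to 0.184). The direction was the same in all 15.

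Ppox, which makes protoporphyrin (chromosome 1 from 171275990 to 171281186), had 37.3, 38.0 and 29.9 CPM in control and 35.2, 33.6 and 43.8 CPM in cachexia. Fech, which inserts the iron (chromosome 18 from 64456550 to 64489066), had 92.8, 118 and 109.9 CPM in control and 109, 98.8 and 84.2 CPM in cachexia. The groups overlapped for both, with log2 fold changes of 0.10 (95% interval -0.27 to 0.47) for Ppox and -0.14 (-0.49 to 0.21) for Fech. The intervals leave out a change as large as that of Alas2 or Alas1 for either gene. Ppox shares 791 of 4515 exon bases with B4galt3 on its other strand. Blvrb (chromosome 7 from 27447978 to 27466144) had 52.5, 42.1 and 42.8 CPM in control and 42.6, 40.2 and 28.3 CPM in cachexia, overlapping groups with a log2 fold change of -0.31 (95% interval -0.73 to 0.12).

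Erythroid transcripts were higher in the same samples as Alas2. Of 20 erythroid markers, 19 were in the count table and 7 were tested, of which 5 were higher in cachexia and 0 lower by edgeR's test (also 0 lower at an unadjusted p under 0.05, and by DESeq2 and limma), the 4 hemoglobin genes Hba-a1, Hba-a2, Hbb-bs and Hbb-bt and the red cell anion exchanger gene Slc4a1. Over all genes tested, 9.0% were called higher. The groups of these 5 did not overlap, beside 20.4% of all genes that were separate and higher. Slc4a1 had enough counts to be tested only through its cachexia samples, so its direction was largely set by that filter. The 4 hemoglobin genes had enough counts in both groups. Markers left untested had few reads, so the 0 lower says little about them. The summed level of the list was 247 to 444 CPM in control and 1304 to 2782 CPM in cachexia. The hemoglobin copies are alike enough for reads to be split between them, so they are given as a sum. The sum reached 439, 242 and 266 CPM in control and 2768, 1297 and 2493 CPM in cachexia. The sum and Alas2 placed the cachexia samples in the same order, with replicate 1 highest and replicate 2 lowest. Their orders differed in control, where replicate 1 was highest in both but the lowest was replicate 2 for the sum and replicate 3 for Alas2. The sum was 37.4, 25.02 and 28.6 times the CPM of Alas2 in the control samples, and 34.1, 38.2 and 42.5 times in the cachexia samples, so the ratio overlapped between groups while each quantity did not. The part of erythroid RNA in the change of Alas2 was not tested.

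**Figure D4:**
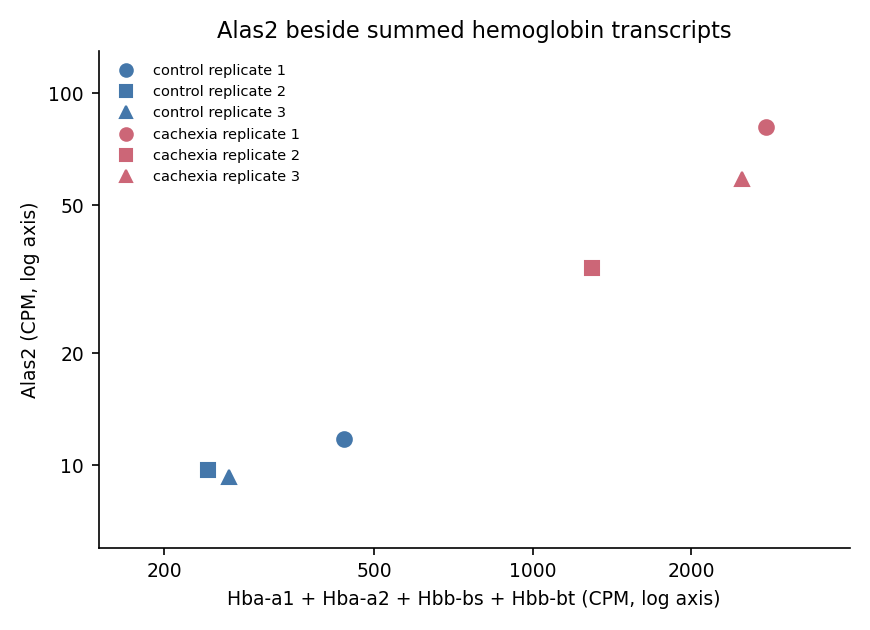
CPM of Alas2 against the summed CPM of Hba-a1, Hba-a2, Hbb-bs and Hbb-bt, both on log axes, for the 3 control (blue) and 3 cachexia (red) samples, with a marker shape for each replicate number. The cachexia samples lie at 34.0 to 81.2 CPM of Alas2 and 1297 to 2768 CPM of hemoglobin, above and to the right of all control samples.

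The other erythroid markers had few reads. Slc4a1 had 5, 4 and 2 counts in control and 84, 35 and 52 counts in cachexia, at an edgeR adjusted p of 0.00356 (Benjamini-Hochberg). The erythroid transcription factor genes Klf1 (6, 5 and 0 counts in control, 7, 5 and 11 in cachexia) and Gata1 (3, 6 and 0 in control, 2, 1 and 2 in cachexia) were near 0 in both groups. Epb42 and Kel were at 0 in all 3 control samples. Ank1 was tested and did not pass.

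The genes whose pattern over the 6 samples was most like that of Alas2 were found by the Euclidean distance between log2 CPM values (pseudocount 0.5), each gene centered on its own mean. They were Slc4a1 (distance 0.27), the endothelial adhesion gene Sele (0.42), the kinase gene Sgk1 (0.45), Hba-a1 (0.49) and the noncoding Gm10384 (0.54). Slc4a1 and Hba-a1 belong to the erythroid list, and the others do not. In control, Slc4a1 lay at 0.11 to 0.25 CPM, under the pseudocount, which shrinks its change on this scale. Its fitted log2 fold change was 4.08, beside 2.50 for Alas2, so its small distance does not mean an equal change. Sele and Gm10384 were also near the pseudocount in control (fitted log2 fold changes 3.19 and 2.86). Sgk1 lay between 70.6 and 80.4 CPM in control and between 304 and 547 CPM in cachexia. The genes most like Alas1 were Armh4 (distance 0.17), Cd276 (0.21), Kif15 (0.24), Tet1 (0.33) and Reep1 (0.34). Like Alas1, by whose pattern they were chosen, all 5 were lower in cachexia, highest in control replicate 1 and lowest in cachexia replicate 3. None of the 5 was on a list of heme genes used here. In cachexia, Kif15 (0.52 to 0.92 CPM) and Tet1 (0.39 to 1.23 CPM) lay near the pseudocount, which shrinks their change on this scale. Their fitted log2 fold changes were -1.71 and -1.86, beside -1.21 for Alas1.

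Of 18 further genes of heme synthesis and its mitochondrial supply, 2 were higher and 1 lower, 3 of 18 beside 17.6% of all genes tested, with a median log2 fold change of 0.01. DESeq2 called 4 higher and 1 lower, and limma 1 higher and 0 lower (2 lower at an unadjusted p under 0.05). Slc25a37, mitoferrin 1, which carries iron into mitochondria of erythroid cells, averaged 25.1 ± 5.25 CPM (SD, n = 3) in control and 40.7 ± 6.12 CPM (SD, n = 3) in cachexia, higher by 0.70 on the log2 scale at an edgeR adjusted p of 0.0433 (Benjamini-Hochberg). Glrx5, a glutaredoxin of iron-sulfur cluster assembly, averaged 93.6 ± 4.31 CPM (SD, n = 3) in control and 151 ± 12.1 CPM (SD, n = 3) in cachexia, higher by 0.69 at an adjusted p of 0.011 in the same edgeR test. Ppargc1a, a coactivator known to induce Alas1 in liver, had 7.07, 12.4 and 13.0 CPM in control and 8.22, 8.78 and 5.11 CPM in cachexia, and the groups overlapped.

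None of the 3 genes of heme breakdown besides Blvrb passed edgeR's test, at an adjusted p of 0.195, 0.343 and 0.0951 for Hmox1, Hmox2 and Blvra (Benjamini-Hochberg). At an unadjusted p under 0.05 in edgeR, 1 of them, Blvra, was lower. DESeq2 and limma called 0 after adjustment. At the unadjusted threshold DESeq2 had 1 higher and 1 lower, and limma 0 higher and 1 lower. Blvra, the main biliverdin reductase, averaged 33.0 ± 8.18 CPM (SD, n = 3) in control and 22.3 ± 2.37 CPM (SD, n = 3) in cachexia. Hmox1, the inducible heme oxygenase, had 41.3, 38.0 and 44.2 CPM in control and 131, 57.4 and 34.5 CPM in cachexia, so that 2 cachexia samples lay above all controls and 1 below them. Of 10 genes of heme transport and scavenging, 3 were higher, beside 9.0% of all genes tested, and 0 lower, beside 8.63%, in edgeR's test (also 0 lower at an unadjusted p under 0.05, and by DESeq2 and limma, which called 4 and 1 to 2 higher). Flvcr2, a homolog of the heme exporter gene Flvcr1, averaged 2.03 ± 0.641 CPM (SD, n = 3) in control and 7.70 ± 1.24 CPM (SD, n = 3) in cachexia. Abcg2, which exports porphyrins among other substrates, averaged 43.8 ± 9.78 CPM (SD, n = 3) and 101 ± 36.6 CPM (SD, n = 3), and Cd163, the macrophage receptor for hemoglobin bound to haptoglobin, 82.8 ± 16.6 CPM (SD, n = 3) and 158 ± 40.0 CPM (SD, n = 3). Their log2 fold changes were 1.92, 1.21 and 0.93, at adjusted p-values of 0.00917, 0.0226 and 0.0293. Cd163 is also on the macrophage list, where Mrc1 was lower.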

How the data were processed

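RNA-seq of eWAT (3 control, 3 cachexia samples) was analyzed. Per the methods, the authors removed low-quality reads, aligned 150-base paired-end reads with Hisat2, and deposited raw counts per gene from featureCounts (1.5.0-p3 in the submitters' processing notes). The authors also deposited FPKM, made from count and gene length. Relative to count, length and total, these carry a further factor of 0.932 to 1.06 per sample. The processing notes name mm9, but 98.3% of the genes matched to GENCODE M21 (GRCm38) have its coordinates. The authors' table of DESeq2 fold changes and p-values, with its 6 per-sample columns, was not used. Counts of all 6 samples were fitted with edgeR 4.0.16 under R 4.3.3, after filterByExpr and TMM scaling, without covariates. A standard error is the log2 fold change divided by the square root of F. Alternatives used DESeq2 1.42.0 and limma 3.58.1. Scripts were tested on simulated counts. Members and lists were chosen with earlier results of these data known. All 9 members were named, as were called genes of each list and the 5 genes nearest in pattern to Alas2 and Alas1. Some genes that this rule covers are not reported here.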

Additional observations from a re-analysis of the deposited data

How the results depend on the processing

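The direction and call of Alas2 and the direction of Alas2 minus Alas1 were the same under all alternatives tried. The number of members higher in cachexia fell from 2 to 1, with the loss of Cpox, under library totals, no filter, a minimum of 10 counts in every sample, limma on log2(FPKM + 1) or log2(FPKM + 0.1), and the replicate block. The RLE size factors, scaling without hemoglobin genes and DESeq2 kept 2. With each sample left out in turn, 1 to 3 members passed, 1 of them higher and 0 to 2 lower, and the genes that passed numbered 828 to 2339 (382 to 1197 higher, 446 to 1142 lower), against 2821 with all samples. The log2 fold change of Ppox ranged from -0.023 to 0.17 over these fits, and was below 0 when control replicate 3 (-0.0091) or cachexia replicate 3 (-0.023) was left out. With the replicate block, 2 members passed, 1 higher and 1 lower (Alas1 had an adjusted p = 0.0503 in edgeR), and 913 genes were higher. Same-numbered samples did not deviate together (r from -0.011 to 0.0085), each control sample correlated best with a cachexia sample of another number, and nothing in the labels pairs them. The counts limit precision for markers under 10 counts, and the 3 samples per group limit it for the members.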
